A study of Mus musculus with 6 samples.

Results

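Polycomb repressive complex 2 (PRC2) is the enzyme complex that methylates lysine 27 of histone H3. It was followed here through 10 subunit genes: Ezh2, Ezh1, Eed, Suz12, Rbbp4, Rbbp7, Jarid2, Mtf2, Phf1 and Phf19. Their probe sets were found by gene name, as every probe set whose only gene symbol in the platform annotation was 1 of these 10, which gave 31 of the 45101 probe sets in the table and 10 of its 18194 named genes. A probe set is a group of short oligonucleotides on the array that reads a transcript of the named gene. The series compared lymph node T cells described as Ezh2 deficient, on 3 arrays, with cells of the same kind and Ezh2 fl/fl genotype, on 3 arrays, by hybridising total RNA of each sample to a mouse expression array. The notation fl/fl is usual for alleles flanked by loxP sites, which the Cre recombinase can cut out. The labels name no Cre line, promoter or deleted exon for the deficient cells, and no age, sex, strain, treatment or pooling for either group. They do not say that the samples came from separate mice, so the p-values rest on the variation among these samples and part of it may be technical.

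In PRC2, Ezh2 or its relative Ezh1 carries the catalytic SET domain, and neither works without Eed, which binds methylated H3, and Suz12, the scaffold of the complex. Rbbp4 and Rbbp7 are histone-binding proteins that PRC2 shares with other chromatin complexes. Jarid2 and the Polycomb-like proteins Mtf2, Phf1 and Phf19 are alternative accessory subunits that bring the core to chromatin. Ezh2 is typically high in dividing cells and Ezh1 is also found in resting ones.

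Median deposited intensities of the 6 arrays ran from 163.3 to 188.1, the highest on Ezh2 fl/fl replicate 1, which also stood alone on the leading principal component (30.6% of the variance). The T cell label fitted its markers. A brightest probe set of each of 13 T cell genes summed to 104610 to 105620 in Ezh2 deficient arrays and to 103660 to 107390 in Ezh2 fl/fl arrays, with 0 of the 13 below the offset on all arrays. In that list the receptor chain gene Cd3d averaged 16500 ± 735 in Ezh2 deficient arrays and 16880 ± 440 in Ezh2 fl/fl arrays (SD, n = 3 each). The coreceptor gene Cd8b1 had a difference of -0.17 (adjusted p = 0.581), with groups that did not overlap. Outside the naming rule given below, probe sets of the coreceptor gene Cd8a ran from -0.23 to -0.062. Going the other way, Cd28 was at 0.17 and 0.19 and Cd5 at 0.13. Over the list, 10 tested probe sets were higher and 17 lower, and 3 (11.1%) had groups without overlap, beside 13.1% of all tested. Intensities are quantile normalised, differences are Ezh2 deficient minus Ezh2 fl/fl on the scale log2(intensity + 43.3), where 43.3 is an offset near the dim end of the arrays, and a probe set was called where limma gave an adjusted p under 0.05 over the 27022 probe sets tested.

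Ezh2, the targeted gene, was lower in every deficient array. Its only probe set, 1416544_at, had intensities of 282, 289 and 276 in Ezh2 deficient replicates 1 to 3, against 579, 684 and 801 in Ezh2 fl/fl replicates 1 to 3. The deficient arrays thus lay close together, with a coefficient of variation of 2.32%, whereas the Ezh2 fl/fl arrays varied by 16.1%, and the groups did not overlap. The mean was 282 ± 6.55 in Ezh2 deficient and 688 ± 111 in Ezh2 fl/fl T cells (SD, n = 3 each), which left 41.0% of the Ezh2 fl/fl level. The log2 difference was -1.16 (SE 0.13, 95% interval -1.45 to -0.86). Its limma p of 7.83e-06 was the 3rd smallest of the 27022, and the adjusted p of 0.0705 did not pass the threshold. Without Ezh2 fl/fl replicate 1, the Ezh2 fl/fl array with the lowest Ezh2, the adjusted p was 0.0306. The call was also made under 3 other settings given in the closing section. It was not made with any other array left out (adjusted p 0.13 to 0.263) or without the filter on dim probe sets (adjusted p = 0.241). An exact two-sided permutation test of the 6 values gave p = 0.1, the smallest that 3 against 3 arrays allow. A larger difference in either direction was found for 0.155% of the tested probe sets. In RNA of a whole cell population, fewer cells with the transcript and less of it per cell cannot be told apart, and nothing in the labels places the probe set inside or outside the deleted part of the gene.

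**Figure D1:**
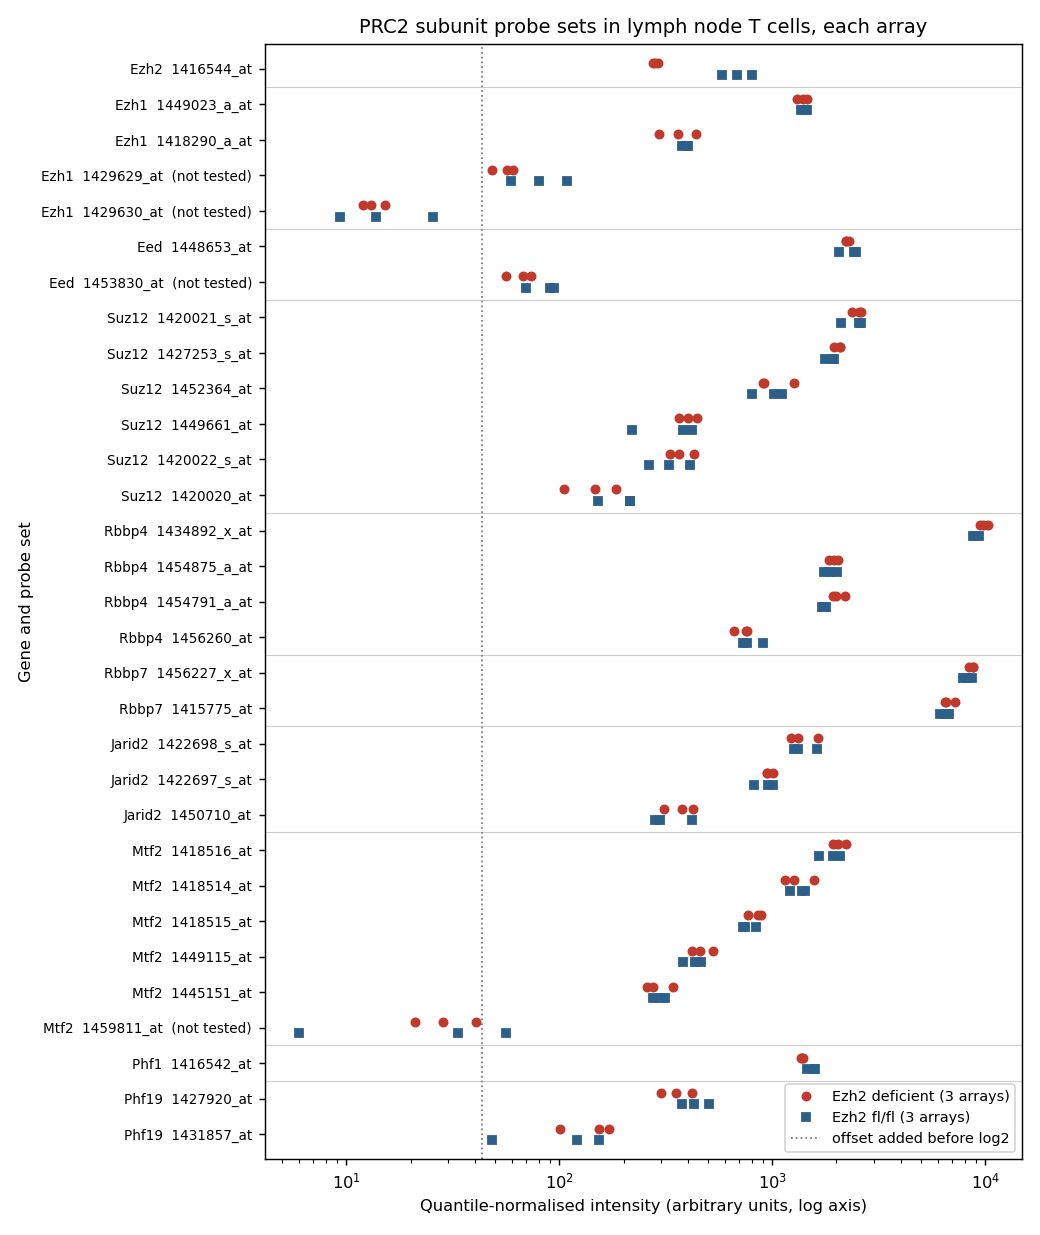
Quantile-normalised intensity (log axis) of each of the 31 probe sets of the 10 PRC2 genes, with circles for the 3 Ezh2 deficient arrays and squares for the 3 Ezh2 fl/fl arrays, and the offset of 43.3 as a dotted line. Ezh2 sits at 276 to 289 in the deficient arrays and at 579 to 801 in the Ezh2 fl/fl arrays, while 26 of the other 30 probe sets overlap between the groups.

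None of the other 9 subunit genes had a called probe set. Of the 27 PRC2 probe sets that were bright enough to be tested, limma called 0, beside 1 of 27022 (0.00370%) over the whole array, and 3 had an unadjusted p under 0.05, beside 7.22% of all probe sets tested. These 3 were Ezh2 and 2 probe sets of Rbbp4. Apart from Ezh2, 2 of 26 tested probe sets (7.69%) were under that unadjusted p and 4 of 26 (15.4%) had groups that did not overlap, where 13.1% of all tested probe sets had such groups, so both shares stood near the background. Over all 30 probe sets other than Ezh2, dim ones included, 17 were higher and 13 lower, with a median difference of 0.056 beside -0.0029 over all tested probe sets.

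For most of these probe sets, the arrays bound the size of a change more tightly than the calls alone show. For all 26 tested probe sets other than Ezh2, the 95% interval of the difference lay wholly above the whole interval of Ezh2. For 22 of the 26 the interval also lay within a 1.5-fold change in either direction. The exceptions were both Phf19 probe sets and the Suz12 probe sets 1449661_at and 1420020_at. Phf19 was thus not bounded within 1.5-fold on any probe set. The distance from a difference to the end of its interval had a median of 0.24 and ran from 0.12 to 0.67. These intervals are per probe set and not adjusted for their number.

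**Figure D2:**
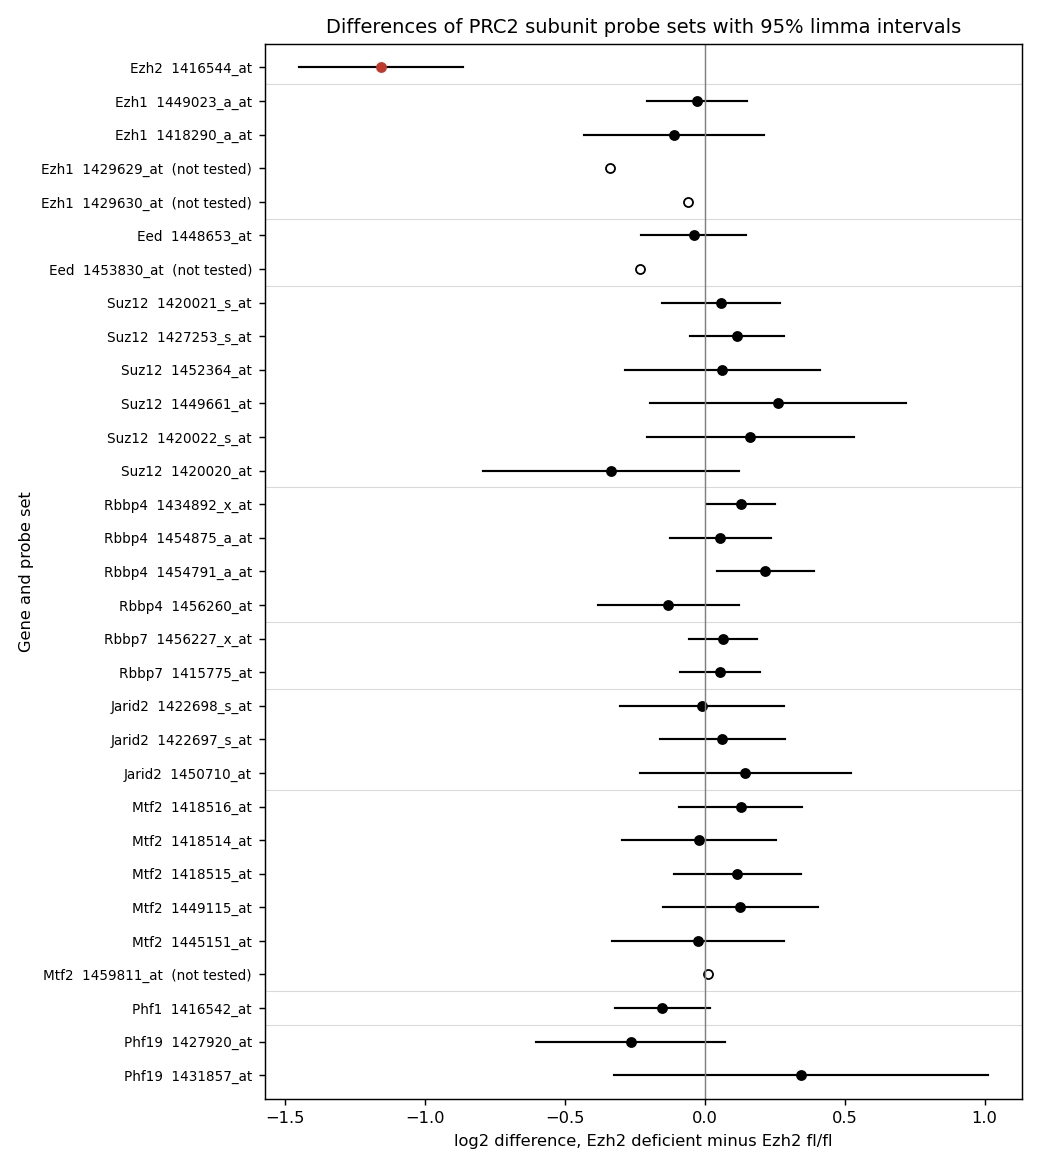
Log2 difference, Ezh2 deficient minus Ezh2 fl/fl, of each PRC2 probe set, with its 95% limma interval. Open circles are the 4 dim probe sets that were not tested, and Ezh2 at -1.16 is the only tested probe set whose interval reaches below -0.80.

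Ezh1, the second catalytic subunit, did not pass on either of its tested probe sets. Probe set 1449023_a_at read 1310, 1453 and 1394 in Ezh2 deficient arrays and 1455, 1418 and 1362 in Ezh2 fl/fl arrays. The groups overlapped, at means of 1386 ± 72.0 in Ezh2 deficient and 1412 ± 46.7 in Ezh2 fl/fl T cells (SD, n = 3 each), and the difference was -0.027 (95% interval -0.21 to 0.15, adjusted p = 0.954). Probe set 1418290_a_at, designed from the same transcript record, gave -0.11 (95% interval -0.43 to 0.21, adjusted p = 0.893), with 362, 294 and 437 in Ezh2 deficient and 402, 397 and 378 in Ezh2 fl/fl arrays. The remaining probe sets, from another cDNA, were dim. Of these 1429629_at averaged 55.2 in Ezh2 deficient and 82.6 in Ezh2 fl/fl arrays, and 1429630_at averaged 13.4 in Ezh2 deficient and 16.2 in Ezh2 fl/fl arrays, with overlapping groups on both and unadjusted limma p of 0.13 and 0.656 when no filter was applied. No Ezh1 probe set stood higher in the deficient cells. The direction is not firm, since 1449023_a_at was at 0.012 without Ezh2 deficient replicate 1 and 1418290_a_at was at 0.020 without Ezh2 deficient replicate 2. With the arrays centred on their medians, 1449023_a_at was at 0.051. The median of all tested probe sets also stood at 0.051 under that setting, beside -0.0029 with quantile normalisation.

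Eed, whose aromatic cage reads methylated H3, was bright on 1 probe set. Probe set 1448653_at read 2215, 2286 and 2228 in Ezh2 deficient arrays, inside the range of 2414, 2466 and 2061 in Ezh2 fl/fl arrays. Its difference was -0.039 (95% interval -0.23 to 0.15, adjusted p = 0.935). The other, 1453830_at, was dim and not tested, at means of 65.8 in Ezh2 deficient and 85.0 in Ezh2 fl/fl arrays.

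Suz12, the scaffold, was read by 6 probe sets from 3 transcript records, of which 3 came from the same record. Their differences ran from -0.33 to 0.26, 5 above 0 and 1 below, and the smallest adjusted p was 0.752. The brightest, 1420021_s_at, read 2372, 2596 and 2553 in Ezh2 deficient arrays and 2610, 2091 and 2539 in Ezh2 fl/fl arrays, with overlapping groups. On the next, 1427253_s_at, the groups did not overlap, at 2077, 2083 and 1957 in Ezh2 deficient and 1947, 1763 and 1930.2 in Ezh2 fl/fl arrays, and the difference was 0.12 (95% interval -0.053 to 0.28, adjusted p = 0.768). The 1 probe set below 0 was also the dimmest. It was 1420020_at, at 145 ± 39.3 in Ezh2 deficient and 193 ± 36.0 in Ezh2 fl/fl arrays (SD, n = 3 each). The suffix _s_at marks probe sets that can match more than 1 transcript.

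Rbbp4 was the subunit gene whose probe sets came nearest to a difference after Ezh2, though not on all 4 of them. On 1454791_a_at the values were 1989, 2203 and 1936 in Ezh2 deficient arrays, all above the 1740.2, 1718 and 1788 of the Ezh2 fl/fl arrays. This probe set differed by 0.22 (95% interval 0.044 to 0.39, adjusted p = 0.635). On the brightest, 1434892_x_at, the values were 9414, 10293 and 9747 in Ezh2 deficient and 8811, 8769 and 9347 in Ezh2 fl/fl arrays, again without overlap (difference 0.13, 95% interval 0.0072 to 0.25, adjusted p = 0.671). The remaining probe sets overlapped and had opposite signs. Probe set 1454875_a_at was at 0.056, and 1456260_at was at -0.13 with means of 723 ± 55.2 in Ezh2 deficient and 797 ± 96.7 in Ezh2 fl/fl arrays. Averaged over its 4 probe sets, Rbbp4 stood at 0.068. Names ending in _x_at mark probe sets with oligonucleotides that can cross-hybridise, and Rbbp4 has a close relative in Rbbp7.

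Rbbp7, that relative, was read by 2 bright probe sets with overlapping groups. Probe set 1456227_x_at read 8722, 8741 and 8398 in Ezh2 deficient arrays and 8201, 7842 and 8672 in Ezh2 fl/fl arrays. Its difference of 0.066 had a 95% interval of -0.056 to 0.19, among the narrowest of the subunits. Probe set 1415775_at was at 0.055 (95% interval -0.089 to 0.20, adjusted p = 0.877).

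Jarid2, a member of the Jumonji family without demethylase activity that guides PRC2 to its targets, did not pass on any of 3 probe sets from 1 transcript record. The brightest, 1422698_s_at, read 1321, 1633 and 1220.2 in Ezh2 deficient arrays and 1313, 1261 and 1623 in Ezh2 fl/fl arrays. The ranges were nearly the same, and the difference was -0.0097 (95% interval -0.30 to 0.28). The others were at 0.063 and 0.15, with overlapping groups and adjusted p of 0.912 and 0.877.

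The Polycomb-like proteins bind DNA rich in CpG and, through their Tudor domain, methylated lysine 36 of H3. Among them, Mtf2 was covered by 6 probe sets, 4 of them from the same record. The 5 that were tested ran from -0.023 to 0.13 and all had overlapping groups. The brightest, 1418516_at, read 2034, 1931 and 2214 in Ezh2 deficient arrays and 1658, 2073 and 1926 in Ezh2 fl/fl arrays (difference 0.13, adjusted p = 0.804). Probe set 1459811_at was below the offset on 5 of the 6 arrays and was not tested.

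Phf1 was lower in each deficient array by a small amount. Its 1 probe set, 1416542_at, read 1389, 1383 and 1368 in Ezh2 deficient arrays and 1568, 1587 and 1462 in Ezh2 fl/fl arrays. The groups did not overlap, and the deficient arrays lay close together, with a coefficient of variation of 0.778% against 4.40% in Ezh2 fl/fl arrays. Of the 26 tested probe sets other than Ezh2, 14 had the lower coefficient of variation in the deficient arrays. The difference was -0.15 (95% interval -0.32 to 0.017, adjusted p = 0.712), and with the arrays centred on their medians it was -0.071 with overlapping groups. That centring also put the median of all tested probe sets at 0.051, beside -0.0029 with quantile normalisation.

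Phf19 was read by a pair of probe sets that pointed opposite ways. Probe set 1427920_at was at 299, 354 and 421 in Ezh2 deficient arrays and 506, 429.7 and 378 in Ezh2 fl/fl arrays, with overlap (difference -0.26, adjusted p = 0.726). The dimmer 1431857_at was at 101, 170.2 and 154 in Ezh2 deficient arrays and 121, 48.2 and 153 in Ezh2 fl/fl arrays, with a difference of 0.34 and the widest interval of all subunits, -0.32 to 1.01. No direction can be given for this gene from these values.

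Set against every other subunit, Ezh2 separated the groups. Within each array, the log2 value of Ezh2 was set against that of each of the other 30 probe sets, and this within-array contrast was compared between groups. It was lower in all 3 Ezh2 deficient arrays than in any Ezh2 fl/fl array for 30 of 30 probe sets, with differences between the groups of -0.82 to -1.50 on the log2 scale and a median of -1.21. Each exact two-sided permutation test gave p = 0.1 (adjusted p = 0.1 over the 30), the smallest that this design allows. All 30 contrasts share the same Ezh2 values, so they are not independent. Ezh2 alone already separated the groups by a wide gap. The separated contrasts therefore largely restate its fall and do not test the other subunits. The same contrast with probe sets outside PRC2 was not computed. Relative to the Ezh2 fl/fl mean, Ezh2 stood at -1.16, -1.13 and -1.19 in Ezh2 deficient replicates 1, 2 and 3 and at -0.22, 0.0026 and 0.22 in Ezh2 fl/fl replicates 1, 2 and 3. The median of the other tested subunit probe sets stayed between -0.014 and 0.064 on all 6 arrays.

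**Figure D3:**
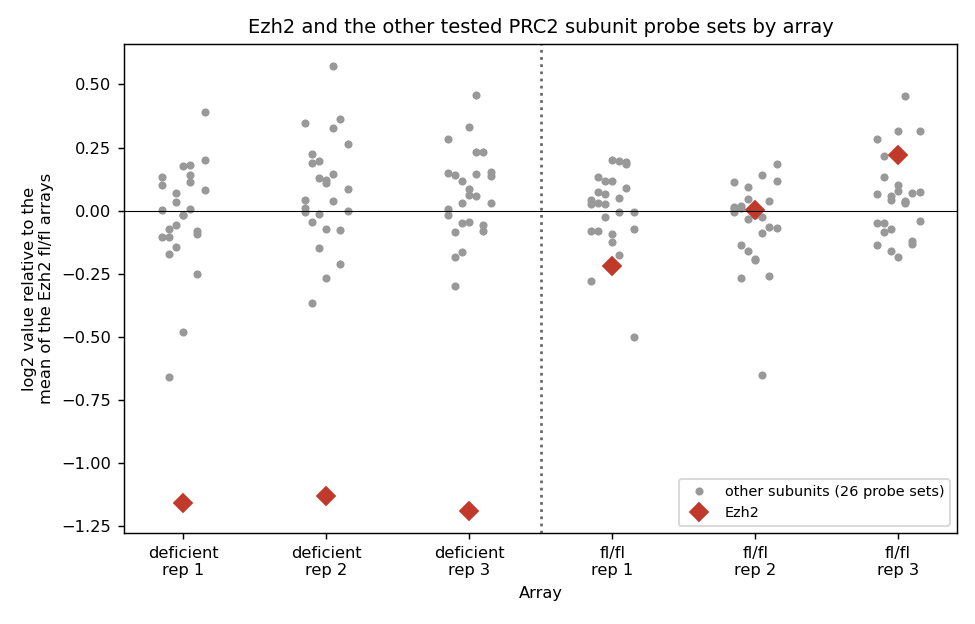
Log2 value of Ezh2 (diamonds) and of the 26 other tested PRC2 probe sets (grey points, spread sideways for legibility) on each array, relative to each probe set's mean over the Ezh2 fl/fl arrays. Ezh2 lies at -1.13 to -1.19 in the 3 deficient arrays, below each of the other probe sets, the lowest of which is at -0.66.

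The genes whose profile over the 6 arrays was most like that of Ezh2 were sought by the root mean square distance between log2 values centred on their mean, over 22001 tested probe sets with a gene name. The nearest was E130119H09Rik at a distance of 0.074, where the median of all was 0.608. It read 60.7, 67.2 and 71.2 in Ezh2 deficient arrays, near the offset, and 177, 213 and 272 in Ezh2 fl/fl arrays. The next were Rab3a, a GTPase of secretory vesicles, at 0.261, BC004004 at 0.267, Serpinh1, a collagen chaperone, at 0.283, and the calcium-binding protein gene S100a4 at 0.29. All 5 had groups without overlap, beside 13.1% of all tested probe sets. The choice by likeness to Ezh2 favours such groups, so this count is no separate result. Of the 5, 0 passed over all probe sets (adjusted p 0.166 to 0.520). Another probe set of Rab3a was at -0.35, another of Serpinh1, dim, was at 0.28, and 4 more of BC004004 ran from -0.35 to 0.31, all with overlapping groups. No PRC2 subunit was among the 5.

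Other proteins of the PRC2 system were taken from lists of related genes. Over all 14 lists, cell markers included, limma called 0 of 242 tested probe sets, and 17 (7.02%) had an unadjusted p under 0.05, beside the 7.22% of all probe sets tested. Further accessory proteins of the complex, Aebp2, Lcor, Lcorl, Epop and Ezhip, had 14 tested probe sets, of which limma called 0, with 1 higher and 1 lower at an unadjusted p under 0.05 and a median of 0.081. Lcor, whose locus encodes a PRC2 accessory isoform as well as a nuclear receptor corepressor, read 1084, 1000 and 1173 in Ezh2 deficient arrays and 917, 822 and 913 in Ezh2 fl/fl arrays on 1443779_s_at. The groups did not overlap there (difference 0.28, adjusted p = 0.621). Of the 3 further Lcor probe sets, the brightest, at 0.13, also had groups without overlap, and those at 0.096 and 0.043 overlapped. In this list 2 of 14 tested probe sets (14.3%) had groups without overlap, beside 13.1% of all tested. Epop, an elongin-binding PRC2 protein, was dim and overlapping at 96.5 ± 35.8 in Ezh2 deficient and 170 ± 61.3 in Ezh2 fl/fl arrays (difference -0.60, adjusted p = 0.692). Ezhip, an inhibitor of PRC2 known from germ cells and tumours, was not tested, at means of 49.0 in Ezh2 deficient and 48.8 in Ezh2 fl/fl arrays.

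Enzymes that act on the same histone residue were called on 0 of 14 tested probe sets, with a median of 0.033. The demethylase gene Kdm6b stood at 1285 ± 130 in Ezh2 deficient and 1576 ± 121 in Ezh2 fl/fl arrays on its brightest probe set (difference -0.29, adjusted p = 0.629) but at 0.018 and -0.071 on the others. Kdm6a, its relative, was at 0.46 on 1427672_a_at (adjusted p = 0.619) and at 0.051 on its brightest probe set. The groups were separated on 1 tested probe set of each gene and overlapped on its other tested ones. In this list 2 of 14 tested probe sets (14.3%) had groups without overlap, near the 13.1% of all tested.

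**Figure D4:**
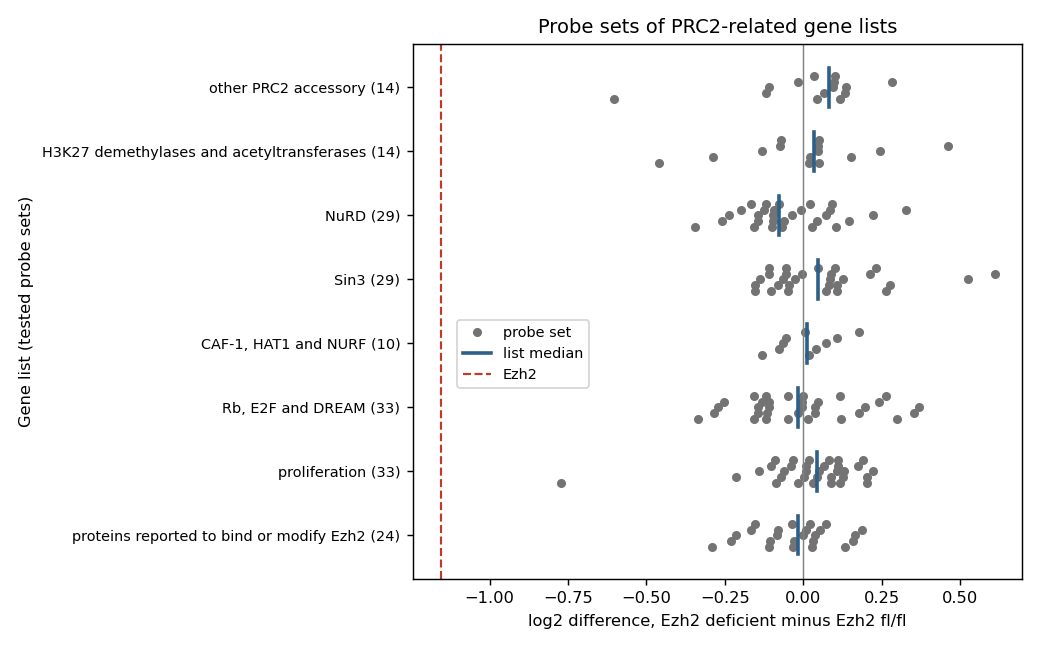
Log2 difference, Ezh2 deficient minus Ezh2 fl/fl, of each tested probe set (points) in 8 lists of PRC2-related genes, with the number of tested probe sets in brackets, the list median as a bar and Ezh2 as a dashed line. List medians lie between -0.079 and 0.081, and no point reaches the Ezh2 value of -1.16.

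The chromatin complexes that share Rbbp4 and Rbbp7 showed 0 called probe sets as well. NuRD, a deacetylase and remodelling complex, had 29 tested probe sets with a median of -0.079, 10 higher and 19 lower. In it Chd4, the remodelling ATPase, was at 0.33 on 1438476_a_at (adjusted p = 0.677) but at 0.022 and -0.17 on brighter ones, and Gatad2a was at -0.24 on 1445239_at (adjusted p = 0.686) and between -0.14 and 0.10 on its others. The Sin3 deacetylase complex had 29 tested probe sets with a median of 0.046, and it held the smallest p of all these lists outside the marker lists. Sap30, a Sin3 subunit, read 402, 461 and 495 in Ezh2 deficient arrays, all above the 241, 325 and 281 of the Ezh2 fl/fl arrays (difference 0.61, adjusted p = 0.427). Arid4b, another Sin3 subunit, was at 0.52 on 1451847_s_at (adjusted p = 0.520) and between 0.085 and 0.21 on its other tested probe sets. A dim Arid4b probe set that was not tested was at -0.26. For the chromatin assembly and remodelling list, 10 probe sets were tested and 0 had an unadjusted p under 0.05. There Smarca5 was at 0.18 on 1424207_at, 0.0051 on its brightest probe set and 0.041 and -0.077 on the others. Chaf1b was at -0.13, and at -0.17 on a dim probe set that was not tested.

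Genes of the Rb and E2F pathway, which is known to drive Ezh2 transcription in dividing cells, had 33 tested probe sets, 0 called, 1 at an unadjusted p under 0.05 and a median of -0.018. Rbl1, the pocket protein p107, averaged 1766 ± 25.7 in Ezh2 deficient and 1536 ± 81.1 in Ezh2 fl/fl arrays (difference 0.20, adjusted p = 0.642), with 0.37, 0.12 and -0.14 on its dimmer probe sets. Lin9 was at 0.35 on 1443984_at (adjusted p = 0.695) and at 0.039 on its brighter one. Proliferation genes likewise had 33 tested probe sets and 0 called, 22 higher and 11 lower, with a median of 0.045. On 1434079_s_at the replication helicase gene Mcm2 read 3268, 1703 and 1228 in Ezh2 deficient arrays and 3544, 3245 and 3060.2 in Ezh2 fl/fl arrays. The groups overlapped through deficient replicate 1 (difference -0.77, adjusted p = 0.636), and the other Mcm2 probe set was at 0.050. Mcm7 was at 0.13 on 1416031_s_at, -0.062 on its brightest probe set and -0.018 and 0.068 on the others. Of proteins reported to bind or modify Ezh2, 0 of 24 tested probe sets had an unadjusted p under 0.05. The DNA methyltransferase gene Dnmt3a was at -0.29 on 1460324_at and at 0.16 and 0.19 on its other tested probe sets. Its dim probe sets, not tested, were at 0.44 and 0.54. The glycosyltransferase gene Ogt was at 0.16 on 1451738_at. The brightest Ogt probe set was at -0.037, and the others ran from -0.17 to 0.13.

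Of the marker genes of other lymph node cells, limma called 0. The summed level of 11 B cell markers was 3090.3 to 3276 in Ezh2 deficient and 3320.4 to 3815 in Ezh2 fl/fl arrays, without overlap, with Cd72 at -0.48 (adjusted p = 0.520) and Cd79b at -0.10. Cd72 alone set that direction. Without it, in a sum added after the values were seen, the other 10 genes gave 1862 to 1981 in Ezh2 deficient and 1781 to 1903 in Ezh2 fl/fl arrays, with overlap. Among all 11 genes 6 were higher and 5 lower, with Cd22 at 0.36 and Pax5 at 0.33, both named after their values were seen. The sum of 7 natural killer cell markers was 1781 to 2254 in Ezh2 deficient and 1359 to 1772 in Ezh2 fl/fl arrays, also without overlap, with Gzma at 0.63 (adjusted p = 0.584) and Eomes at 0.27 and 0.41. Over all 8 probe sets of that list, 6 were higher and 2 lower. The lower ones, Ncr1 at -0.21 and Klra8 at -0.068, were dim and not tested. The 2 brightest genes of that list were Eomes and Gzma. Eomes averaged 1112 in Ezh2 deficient and 919 in Ezh2 fl/fl arrays on its brightest probe set, and Gzma 306 in Ezh2 deficient and 185 in Ezh2 fl/fl arrays. The sum without these genes was not computed, and the cell source of their transcripts was not tested. The sums for 14 myeloid and dendritic cell genes were 1606 to 1779.5 in Ezh2 deficient and 1641 to 2069.5 in Ezh2 fl/fl arrays, with Csf1r at -0.42 on 1419872_at but at 0.12 and 0.29 on its other probe sets, and Adgre1 at 0.23. For 10 stromal and endothelial genes they were 2129 to 2280.1 in Ezh2 deficient and 2035 to 2648 in Ezh2 fl/fl arrays, with Pecam1 at -0.20 and Kdr at 0.093. For 4 erythroid genes they were 249 to 405 in Ezh2 deficient and 295 to 509.6 in Ezh2 fl/fl arrays, with Hba-a1 at -0.38 and Slc4a1, dim and not tested, at -0.16. The part of these cells in the values of the PRC2 genes was not tested.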

How the data were processed

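The authors deposited 1 linear intensity per probe set and array for 6 mouse expression arrays; the software that made the intensity values is not given in the sources used here. The trimmed mean, leaving out 2% at each end, was the same on every array, as after scaling. Array medians differed by 15.2%, above a tolerance of 10%, so the arrays were quantile normalised and put on the scale log2(intensity + 43.3), with the 20th percentile of positive values as the offset. The 64 control probe sets and those below the 40th percentile of mean log2 value were left out, leaving 27022. This filter kept 27 of the 31 PRC2 probe sets. Such a scale understates changes of dim probe sets. The number of arrays limits the precision.

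Ezh2 deficient minus Ezh2 fl/fl was tested two-sided with limma 3.58.1 in R 4.3.3 (eBayes with trend, 4 residual degrees of freedom, no covariate) and Benjamini-Hochberg adjustment over 27022 probe sets. The limma step was tested on simulated data. Gene names came from the platform annotation, and a RefSeq table of GRCm38.p6 changed 0 symbols.

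The members, the 14 gene lists and the tests were chosen with earlier results of these data known. All subunit probe sets are named. Each list names its called genes, otherwise the 2 with the smallest p, and each marker list its 2 brightest genes and the one with the smallest p. The 5 profiles nearest Ezh2 are named. The alternatives were other scalings, offsets, filters and moderation, array weights, a looser threshold, gene means and each array left out in turn.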

Additional observations from a re-analysis of the deposited data

How the results depend on the processing

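The Ezh2 difference kept its sign in all 15 alternative fits. It was called under the deposited scaling (-1.188, adjusted p = 0.0421), with robust eBayes (-1.156, adjusted p = 0.04997) and with array weights (-1.203, adjusted p = 0.0346), and each of these gave 1 called PRC2 probe set. Leaving out each array in turn gave differences from -1.284 to -1.046, with adjusted p from 0.0306 to 0.263, and 0 to 1 called PRC2 probe sets. Over all other alternatives the adjusted p of Ezh2 ran up to 0.241, without the filter. At an adjusted p under 0.10 there was 1 called PRC2 probe set. Over the whole array, where 1 probe set was called, the count was 3 under the deposited scaling, with robust eBayes and with array weights, 2 with median centring, 6 at an adjusted p under 0.10, and 1 to 6 with an array left out (6 when Ezh2 deficient replicate 2 was dropped, 3 when it was Ezh2 fl/fl replicate 1). The cause was not tested. Of the other 30 PRC2 probe sets, 0 were called in any fit (smallest adjusted p 0.563), 19 kept their sign in all 15 and 11 did not. Of their 450 recomputed values, 8 moved by more than the spread between replicates, all with median centring. Under that setting the median of all tested probe sets stood at 0.051, beside -0.0029 with quantile normalisation. The 0 calls over the gene lists and the 30 separated Ezh2 contrasts did not change under the deposited scaling. No paired analysis was possible because the labels give the samples no shared replicate numbers. The dimmest subunit probe sets are limited by signal near the offset.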
